A study of Mus musculus with 14 samples.

Results

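Crypts of the mouse colon were compared with crypts of the ileum, the last segment of the small intestine, in animals that keep Atoh1. The comparison took the 2 libraries titled Colon WT and the 2 titled Ileum WT, which are 4 of the 14 libraries of a study on the target genes of ATOH1, a transcription factor of the secretory lineage. The WT crypts of both tissues came from littermates aged 6 to 8 weeks with Atoh1 f/+ ; Vil CreERT2, so the control animals carry 1 floxed Atoh1 allele and the recombinase as well. CreERT2 is a recombinase that acts after an inducer is given, and Villin is active throughout the intestinal epithelium. The inducer, the sex of the animals, and whether colon and ileum libraries came from the same animals were not stated in the labels, so p-values measure the spread between these libraries, which may be technical. For comparison, the same tissue contrast was taken in crypts with Atoh1 f/f ; VilCreERT2 (KO, 2 libraries per tissue, same age) and in GFP cells (3 libraries per tissue), which are live cells of AtohGFP/GFP mice sorted for GFP, in which ATOH1 is fused to GFP. The KO and GFP libraries share no sample with the WT libraries.

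A crypt is a pit in the gut wall with stem cells at its base, dividing progenitors above them and maturing cells at its mouth. The ileum digests and absorbs the last nutrients and recovers bile acids and vitamin B12, and its crypts hold Paneth cells, which secrete antimicrobial peptides. The colon absorbs salt and water, lives beside a dense microbiota behind a thick mucus layer, and has no typical Paneth cells in the mouse. Regional identity along the gut is kept by transcription factors of the Hox, CDX and GATA families.

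RNA was counted per Ensembl gene. The gene counts were 8848660 and 10870416 in colon WT 1 and 2, and 10426027 and 9645245 in ileum WT 1 and 2. Values below are CPM, the read counts scaled to a common library size, and a fold change is a log2 ratio of colon over ileum with its standard error. A gene is called, or said to have risen or fallen in colon, when edgeR's quasi-likelihood test on the 8 crypt libraries gave a Benjamini-Hochberg adjusted p under 0.05. Of 14415 genes tested, 2872 were called (19.9%), 1472 of them higher in colon (10.2%) and 1400 lower (9.71%). Every count of gene list members below stands against these background shares, and the median log2 fold change over all genes tested was -0.01. The changes were often large, as 277 genes rose and 222 fell by more than 8-fold, and 126 rose and 115 fell by more than 32-fold. The colon libraries lay above both ileum libraries for 29.6% of genes and below both for 29.0%.

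The first principal component of the 8 crypt libraries held 64.9% of the variance and separated colon from ileum. The next components were led by the ileum WT libraries, ileum WT 2 on the second (15.2%) and ileum WT 1 on the third (8.4%). These 2 libraries differed from each other more than the colon WT libraries did, with a chi-square per gene of 84.8 in ileum WT against 21.74 in colon WT. Tuft cell genes were higher and lymphocyte markers lower in ileum WT 2 than in ileum WT 1. The 26 matched tuft cell genes summed to 63.7 and 128 CPM in colon WT 1 and 2, against 78.6 and 743 CPM in ileum WT 1 and 2. Lymphocyte markers summed to 669 and 427 CPM in colon WT 1 and 2, against 1526 and 265 CPM in ileum WT 1 and 2. Leaving out 1 WT library at a time left 1456 calls without colon WT 1, 1289 without colon WT 2, 3544 without ileum WT 1 and, when ileum WT 2 was dropped, 2813. Of the 2872 calls, 1055 (36.7%) were kept whichever of the 4 WT libraries was left out. Below, a call that was lost when a given WT library was left out is named with that library. The filter on low counts was applied anew in each such fit, so the number of list members tested could change.

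**Figure D1:**
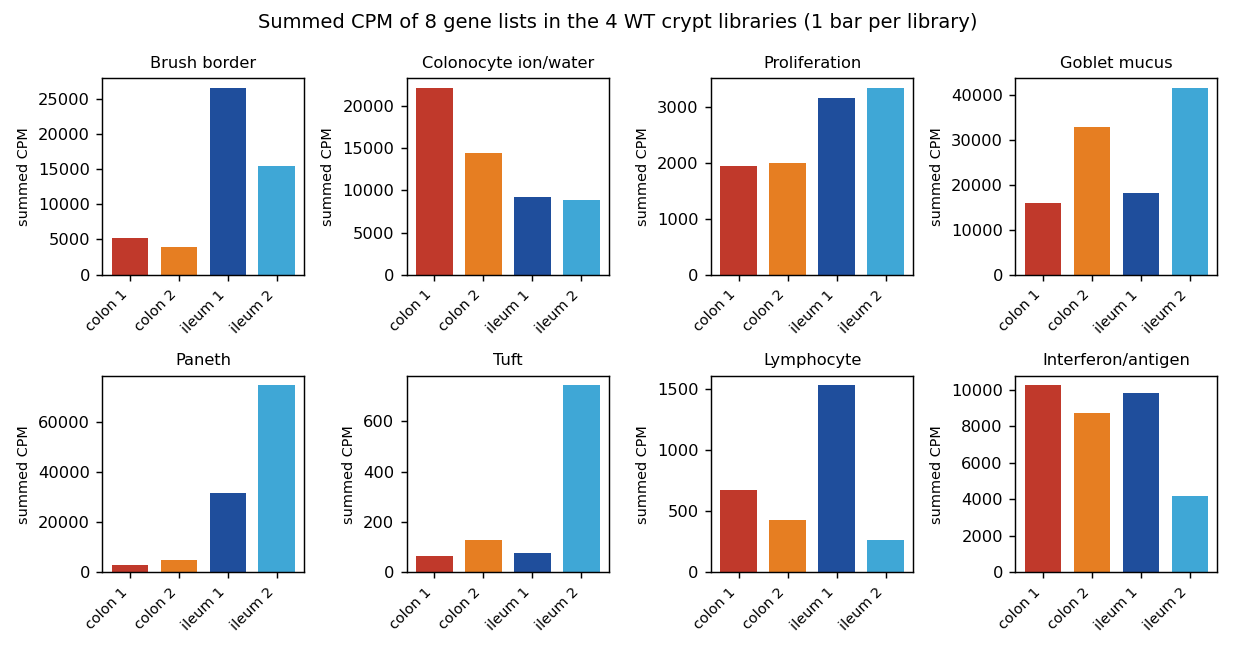
Summed CPM (vertical axis, from 0) of the matched members of 8 gene lists, with 1 bar per WT library and colon left of ileum. Brush border and proliferation genes were lower in both colon libraries and ion and water transport genes higher, while tuft genes reached 743 CPM in ileum WT 2 alone and lymphocyte markers ranged from 265 to 1526 CPM within ileum WT.

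Markers put the libraries in their labelled tissues. Sis, the sucrase-isomaltase of small intestinal enterocytes, had 7.85 and 2.5 CPM in colon WT, against 1943 and 2229 CPM in ileum WT. Car1, the carbonic anhydrase of colonocytes, had 7889 and 1923 CPM in colon WT, against 4.49 and 19.3 CPM in ileum WT. The 6 small intestinal enterocyte markers summed to 416 and 199 CPM in colon WT and to 8514 and 6945 CPM in ileum WT. The 5 colonocyte markers summed to 10329 and 3888 CPM in colon WT, most of it in colon WT 1 from Car1, and to 517 and 977 CPM in ileum WT. Car4, 1 of these 5, overlapped between the tissues and was not called, with 750 and 705 CPM in colon WT and 326 and 793 CPM in ileum WT. Of the 5 epithelial markers, Epcam, Cdh1, Krt8 and Krt20 were not called, with Epcam at 1986 and 1923 CPM in colon WT and at 2253 and 1706 CPM in ileum WT. Vil1 was called lower in colon, with 1138 and 888 CPM in colon WT against 2172 and 1504 CPM in ileum WT, and is taken up below. Atoh1 itself had 81.1 and 58.3 CPM in colon WT, against 52.5 and 51.2 CPM in ileum WT, and was not called (0.42 ± 0.19, edgeR adjusted p = 0.177). Fewer cells of a type and less RNA per cell cannot be told apart in these bulk libraries, here and in all that follows.

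Hox genes encode homeodomain factors that lie in 4 chromosomal clusters and set position along the body axis, with the high-numbered groups used towards the tail end. Of 25 tested Hox genes, 18 rose in colon and none fell, with a median log2 fold change of 4.14. The 3 tested members of group 13 were among the largest rises of the whole comparison. Hoxd13 had 57.4 and 61.8 CPM in colon WT and no count in either ileum WT library, so that, with the ileum group set to a floor of 3 counts in all, it was at least 388-fold higher in colon (adjusted p = 6.18e-05, edgeR). Hoxa13 had 38.8 and 54.4 CPM in colon WT, against 0 in both ileum WT libraries (at least 303-fold, adjusted p = 0.000479, edgeR). Hoxb13 had 233 and 225 CPM in colon WT, against 0.0976 CPM, a lone read, in ileum WT 1 and 0 in ileum WT 2 (edgeR adjusted p = 4.31e-06). Per kilobase of exon, the scale on which genes can be set side by side, Hoxb13 stood at 106 and 102 CPM in colon WT, against 15.7 and 22 CPM for Hoxa13 and 23.1 and 24.9 CPM for Hoxd13.

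The calls are given by cluster, with no test between clusters. In the Hoxd cluster all 7 tested genes, of groups 3 and 8 to 13, were called higher, although those of the lower groups were faint. Hoxd8 and Hoxd12 lost their calls without either colon library, and Hoxd3 without either colon library or ileum WT 2. Hoxd9 had 1.12 and 0.624 CPM in colon WT, against 0 in ileum WT, and lost its call when any 1 of the 4 WT libraries was left out. In the Hoxa cluster 9 of 10 tested genes were called, of which Hoxa2 was lost without either colon library and Hoxa5 and Hoxa6 without colon WT 2. Hoxa7 had 29.5 and 43.8 CPM in colon WT, against 0.195 and 0.108 CPM in ileum WT, and Hoxa10 had 30.5 and 53.2 CPM in colon WT, against 0.195 and 0.108 CPM in ileum WT. Towards the front of that cluster the gap narrowed, with Hoxa3 at 10.7 and 19.4 CPM in colon WT and 0.683 and 3.87 CPM in ileum WT, a call lost without either colon library, and Hoxa4 at 1.01 and 1.43 CPM in colon WT and 0.293 and 0.753 CPM in ileum WT, which was not called. In the Hoxb cluster 2 of 8 tested genes were called, Hoxb9, lost without either colon library, and Hoxb13. Hoxb6 had 31.2 and 30.5 CPM in colon WT, against 19.4 and 10.5 CPM in ileum WT (1.04 ± 0.31, edgeR adjusted p = 0.0613), and Hoxb7 had 13.8 and 11.9 CPM in colon WT, against 13.2 and 7.42 CPM in ileum WT. No Hoxc gene passed the filter on low counts, and the highest value of the 6 matched ones in a WT library was 1.07 CPM, for Hoxc8 in ileum WT 1. Without ileum WT 1, Hoxb5, Hoxb6 and Hoxb8 were called higher as well. The number of Hox genes called was 11 without colon WT 1, 9 without colon WT 2, 20 without ileum WT 1 and 16 when ileum WT 2 was dropped.

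Hottip and Hoxa11os are long noncoding RNAs of the Hoxa cluster, and both rose. Hottip, transcribed from the end of the Hoxa cluster, had 17.9 and 29.3 CPM in colon WT, against 0 in ileum WT (at least 154-fold). Hoxa11os, which lies antisense to Hoxa11, had 72.9 and 91.0 CPM in colon WT, against 0.0976 and 0 CPM in ileum WT. The labels do not give the strand setting of the counting, so reads of Hoxa11os and Hoxa11 may not be separable.

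**Figure D2:**
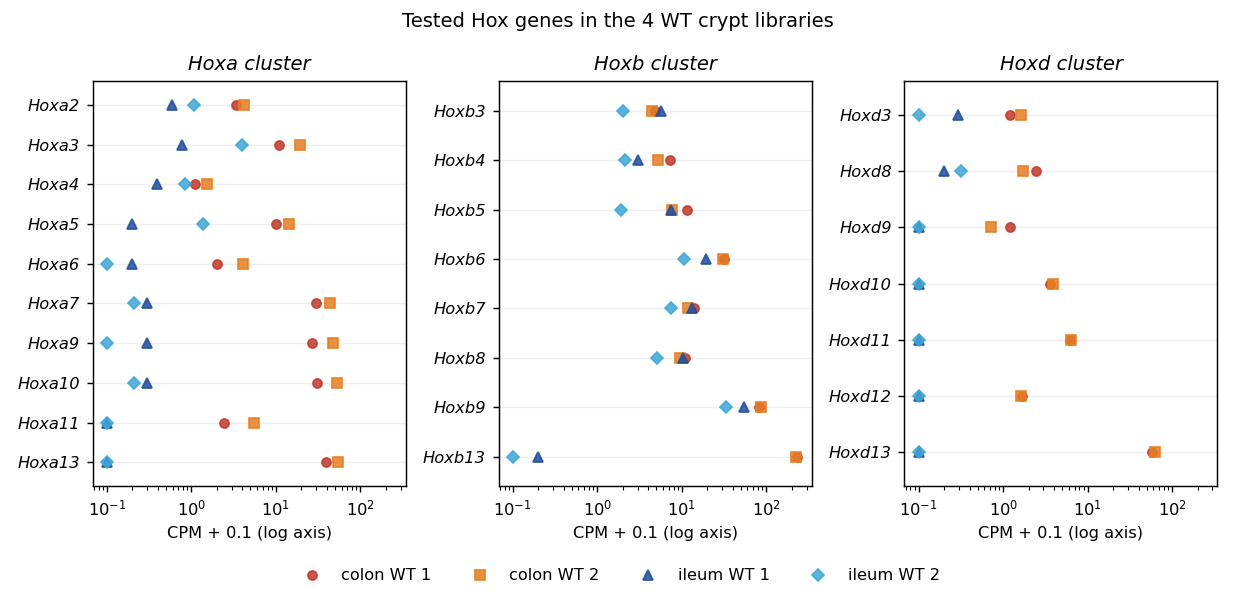
CPM plus 0.1 (horizontal log axis) of each tested Hox gene in the 4 WT libraries, with 1 panel per cluster and genes in order of paralogous group. Groups 9 to 13 of the Hoxa and Hoxd clusters lie at or near 0 in ileum, whereas Hoxb3 to Hoxb9 were read in both tissues and Hoxb13 in colon, save for 1 read in ileum WT 1.

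Among 45 other tested regulators of region and of absorptive cells, which include Hoxb13, 14 rose in colon and 10 fell, and without colon WT 2 the numbers were 10 and 6. CDX2, the master regulator of intestinal identity, was not called, with Cdx2 at 307 and 270 CPM in colon WT and 302 and 257 CPM in ileum WT (0.04 ± 0.13). The GATA factors of the small intestine were lower. Gata5 had 1.35 and 1.34 CPM in colon WT, against 109 and 108 CPM in ileum WT (-6.32 ± 0.13, edgeR adjusted p = 3.09e-06). Gata4, which is highest in the upper small intestine, had 1.91 and 1.16 CPM in colon WT, against 9.56 and 31.8 CPM in ileum WT, and lost its call without either colon library. Gata6, read in both tissues, had 66.9 and 79.7 CPM in colon WT, against 97.4 and 122 CPM in ileum WT (-0.58 ± 0.14), a call lost without colon WT 1, colon WT 2 or ileum WT 2. Also lower were Maf, a bZIP transcription factor, with 9.31 and 4.99 CPM in colon WT against 243 and 118 CPM in ileum WT, and Creb3l3, a lipid-responsive factor, with 7.74 and 3.65 CPM against 63.1 and 67.2 CPM. Hnf4g fell by 1.80 ± 0.10 on the log2 scale, whereas its paralogue Hnf4a, with 1113 and 959 CPM in colon WT and 1381 and 1282 CPM in ileum WT, was not called (-0.36 ± 0.14).

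Higher in colon was Foxd2, a forkhead factor, with 59.2 and 66.7 CPM in colon WT against 0.488 and 0.645 CPM in ileum WT. Pparg, a receptor for fatty acid ligands, had 124 and 92.7 CPM in colon WT, against 12.6 and 9.25 CPM in ileum WT. Klf4, a factor of differentiated surface and goblet cells, had 546 and 615 CPM in colon WT, against 184 and 165 CPM in ileum WT. Nr3c2, the mineralocorticoid receptor, rose by 1.27 ± 0.18. The ETS factor Etv5 rose by 3.22 ± 0.30, and its relative Etv4, with 6.28 and 14.3 CPM in colon WT and 0.195 and 2.37 CPM in ileum WT, did not pass (edgeR adjusted p = 0.0572). Cdx1 was called with a small difference, 0.38 ± 0.10, which did not hold without colon WT 1, colon WT 2 or ileum WT 1.

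Because 3 GATA factors were lower together, the 250 bases before the start of each gene in the RefSeq promoter set (build GRCm38.p6) were searched for AGATAAG, a form of the GATA motif, on both strands (CTTATCT on the other). It was present for 229 of 10237 tested genes with a window (2.24%). Of genes that were lower in colon by 8-fold or more, 10 of 152 held it (6.58%), and of genes higher by 8-fold or more, 6 of 200 did (3.0%). Without regard to size, 28 of 1043 genes lower in colon (2.68%) and 23 of 1109 higher (2.07%) held it, as did 856 of all 27025 RefSeq genes with a window (3.17%). Among the 10, the windows of Abcg5 and Abcg8 overlap and hold the same match. These shares are descriptions of the letters and not of binding. The windows of 4 genes named here are printed with the motif in capitals, 3 of genes lower in colon and that of Insl5, a colonic hormone, as a case of the opposite direction. They are Slc7a9 at chr7:35448842-35449091 on the plus strand, Abcg5 at chr17:84683012-84683261 on the minus strand, Gip at chr11:96024295-96024544 on the plus strand and Insl5 at chr4:103026729-103026978 on the minus strand.
Slc7a9: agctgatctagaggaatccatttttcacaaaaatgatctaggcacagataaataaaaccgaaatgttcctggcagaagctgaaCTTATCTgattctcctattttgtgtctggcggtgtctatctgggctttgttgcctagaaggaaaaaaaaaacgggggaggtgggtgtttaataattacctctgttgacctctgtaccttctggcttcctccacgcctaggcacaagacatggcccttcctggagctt
Abcg5: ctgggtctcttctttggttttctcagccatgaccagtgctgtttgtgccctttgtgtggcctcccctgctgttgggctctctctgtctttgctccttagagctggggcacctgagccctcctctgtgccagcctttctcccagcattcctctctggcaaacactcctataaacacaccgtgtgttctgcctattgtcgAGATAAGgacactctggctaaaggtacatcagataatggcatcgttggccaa
Gip: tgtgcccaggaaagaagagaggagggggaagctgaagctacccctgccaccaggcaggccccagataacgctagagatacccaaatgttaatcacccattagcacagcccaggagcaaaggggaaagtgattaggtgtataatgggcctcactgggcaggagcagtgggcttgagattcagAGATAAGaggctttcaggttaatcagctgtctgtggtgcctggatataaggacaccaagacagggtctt
Insl5: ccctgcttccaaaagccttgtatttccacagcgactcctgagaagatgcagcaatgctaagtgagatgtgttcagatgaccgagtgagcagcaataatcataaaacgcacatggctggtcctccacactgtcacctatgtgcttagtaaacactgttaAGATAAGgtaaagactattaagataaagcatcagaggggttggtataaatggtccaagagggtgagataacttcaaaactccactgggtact

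Enzymes of the brush border, which finish the digestion of sugars and peptides at the cell surface, were lower in colon: 18 of 28 tested genes fell and none rose, with a median of -3.31. Sis fell by 8.68 ± 0.58 on the log2 scale (edgeR adjusted p = 0.000249). Anpep, an aminopeptidase, had 25 and 7.49 CPM in colon WT, against 6745 and 2718 CPM in ileum WT (-8.19 ± 0.82). Enpp7, the sphingomyelinase of the gut, came down to 2 reads in the colon group, with 0.224 and 0 CPM in colon WT against 56.1 and 69.9 CPM in ileum WT. Treh, the trehalase, fell by 6.87 ± 0.43, and Cubn, the receptor for the vitamin B12 carrier, fell by 7.03 ± 0.73. The list also holds structural genes of the microvilli. Vil1, encoding villin, fell by 0.86 ± 0.21, a call lost without colon WT 1, colon WT 2 or ileum WT 1, and Cdhr2 (-0.87 ± 0.25), Myo1a (-0.64 ± 0.22) and Cdhr5 (-0.43 ± 0.21) did not pass. Pdzk1, a scaffold protein that anchors transporters under the brush border and is in none of the lists, had no count in colon WT and 28.7 and 27.6 CPM in ileum WT, at least 189-fold lower in colon (edgeR adjusted p = 0.000213).

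Of 39 tested nutrient transporters, 22 fell in colon and 3 rose, with a median of -2.52, and 7 rose without ileum WT 1. The neutral amino acid transporter gene Slc6a19 had 2.92 and 1.25 CPM in colon WT, against 540 and 426 CPM in ileum WT (-7.89 ± 0.35). Slc7a9, which takes up cystine and basic amino acids, had 10.1 and 4.37 CPM in colon WT, against 321 and 212 CPM in ileum WT (-5.23 ± 0.41). The main carriers for glucose and for small peptides fell less and stayed well read in colon. Slc5a1, the sodium-glucose cotransporter, had 286 and 252 CPM in colon WT, against 1416 and 1123 CPM in ileum WT (-2.24 ± 0.16), and Slc15a1, the peptide transporter, had 60.6 and 57.4 CPM in colon WT, against 256 and 208 CPM in ileum WT (-1.98 ± 0.17). The 3 that rose were Trpv6, Slc36a1 and Slc16a1. Trpv6, an epithelial calcium channel, had 13.3 and 6.06 CPM in colon WT and no count in ileum WT (at least 63.2-fold). Slc36a1, a proton-coupled amino acid carrier, rose by 1.92 ± 0.22. Slc16a1, a carrier of lactate and short-chain fatty acids, rose by 0.90 ± 0.23, a call lost without colon WT 1 or ileum WT 1. Slc5a8, another carrier of short-chain fatty acids, had 491 and 464 CPM in colon WT, against 302 and 99.3 CPM in ileum WT, and did not pass (1.25 ± 0.47).

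Of 41 tested genes of bile acid and lipid handling, 26 fell in colon and 2 rose, with a median of -2.15, and 6 rose without ileum WT 1. The ileum is where bile acids are taken back up. Slc10a2, the apical bile acid transporter, had 32.6 and 10.6 CPM in colon WT, against 309 and 126 CPM in ileum WT (-3.34 ± 0.68, edgeR adjusted p = 0.0216), a call lost without colon WT 2 or ileum WT 1. Fabp6, the ileal bile acid binding protein, had 29.8 and 10.2 CPM in colon WT, against 2888 and 1384 CPM in ileum WT (-6.75 ± 0.76). Fgf15, the hormone by which the ileum signals bile acid supply to the liver, had no count in colon WT and 17.2 and 31.1 CPM in ileum WT, at least 162-fold lower in colon (edgeR adjusted p = 0.0145). Its call did not hold when any 1 of the 4 WT libraries was left out, although the colon libraries stayed at 0. Nr1h4, the bile acid receptor FXR, was read in both tissues, with 141 and 85.5 CPM in colon WT and 213 and 94.4 CPM in ileum WT, and was not called.

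Genes of fat assembly and cholesterol uptake followed. Apoa1, an apolipoprotein of chylomicrons and HDL, had 5.05 and 1.07 CPM in colon WT, against 2120 and 2090 CPM in ileum WT (-9.47 ± 0.70). Npc1l1, the cholesterol importer, had 2.69 and 0.0891 CPM in colon WT, against 651 and 504 CPM in ileum WT (-8.80 ± 0.82). Abcg5, whose promoter is shown above, and Abcg8 form a pump that returns sterols to the lumen, and Abcg5 fell by 3.78 ± 0.57 and Abcg8 fell by 4.94 ± 0.67. Mttp, which loads lipid onto apolipoprotein B, fell by 7.01 ± 0.55. The 2 genes that rose were Scarb1, the HDL receptor, with 23.1 and 30.7 CPM in colon WT against 3.12 and 1.94 CPM in ileum WT, and Plin2, a lipid droplet coat protein (1.22 ± 0.13).

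Ion and water transport showed the reverse, with 20 of 43 tested genes higher in colon and 7 lower, and a median of 0.56. Without colon WT 1, 4 were called lower. Aqp8, a water channel, had 517 and 280 CPM in colon WT, against 0.195 and 0.215 CPM in ileum WT (10.84 ± 0.47, edgeR adjusted p = 4.22e-05). Car2, a carbonic anhydrase, had 1148 and 1095 CPM in colon WT, against 2.83 and 1.83 CPM in ileum WT. Atp12a, the colonic proton-potassium pump, had 446 and 370 CPM in colon WT, against 0.586 and 0.323 CPM in ileum WT. The epithelial sodium channel, through which the distal colon recovers salt under aldosterone, has 3 subunits, and all rose. Scnn1b had 10.2 and 12.6 CPM in colon WT, against 0 and 0.215 CPM in ileum WT (6.63 ± 0.74), Scnn1g rose by 4.66 ± 0.75, and Scnn1a, also read in ileum, rose by 1.77 ± 0.26. Hsd11b2, which keeps glucocorticoids off the mineralocorticoid receptor, had 449 and 401 CPM in colon WT, against 70.3 and 31.7 CPM in ileum WT. Slc26a3, the chloride-bicarbonate exchanger, rose by 2.45 ± 0.21, and the anion channel gene Best2 by 5.89 ± 0.50.

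The exchanger and channel families held members of both regions. Slc26a6, a relative of Slc26a3, had 2.13 and 1.6 CPM in colon WT, against 183 and 160 CPM in ileum WT (-6.53 ± 0.19). Among the aquaporins Aqp8 and Aqp4 rose, whereas Aqp7 and Aqp3, both without a count in colon WT, and Aqp1 and Aqp11 fell. The call of Aqp1 was lost without colon WT 1 and that of Aqp11 without colon WT 1, colon WT 2 or ileum WT 2. Aqp7 had 4.2 and 11.8 CPM in ileum WT, at least 53.8-fold lower in colon. Guca2b, encoding the peptide uroguanylin that drives fluid secretion, had 20.0 and 18.4 CPM in colon WT, against 127 and 221 CPM in ileum WT. Its receptor gene Gucy2c was not called, with 513 and 488 CPM in colon WT and 526 and 395 CPM in ileum WT, as was the chloride channel gene Cftr, with 212 and 309 CPM in colon WT and 222 and 269 CPM in ileum WT.

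**Figure D3:**
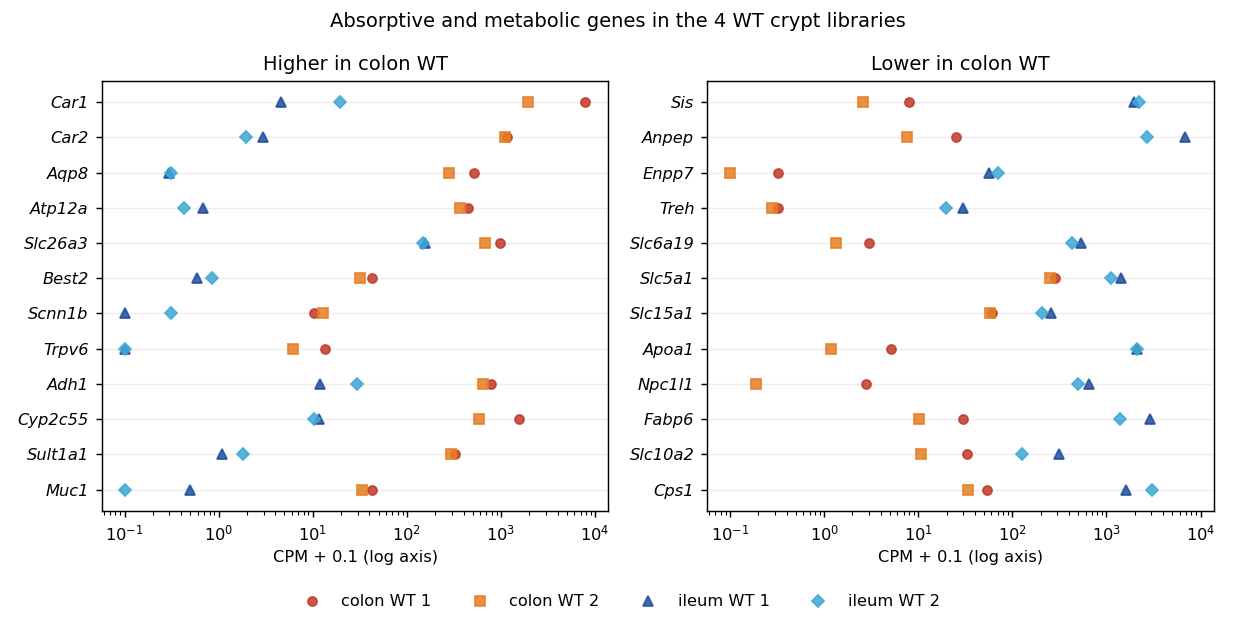
CPM plus 0.1 (horizontal log axis) of 12 genes higher in colon WT (left panel) and 12 lower (right panel), with 1 symbol per WT library. The genes were picked from those called, so the lack of overlap between the tissues in both panels follows from the choice. Of all genes tested, both colon libraries lay above both ileum libraries for 29.6% and below both for 29.0%. Slc5a1 and Slc15a1 show narrower gaps than Sis or Apoa1.

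Metabolic enzymes were exchanged between the regions. Of 54 tested genes of retinoid, steroid and xenobiotic metabolism, 18 rose and 13 fell. Sult1a1, a phenol sulfotransferase, had 326 and 292 CPM in colon WT, against 0.976 and 1.72 CPM in ileum WT (7.84 ± 0.25). Cyp2c55, a cytochrome P450 of the colon, had 1566 and 581 CPM in colon WT, against 11.5 and 10.3 CPM in ileum WT. Adh1, an alcohol and retinol dehydrogenase, had 782 and 646 CPM in colon WT, against 11.7 and 29.3 CPM in ileum WT, and Ces1g, a carboxylesterase, rose by 6.30 ± 0.66. On the other side, Cyp2u1 had 0.449 and 0.356 CPM in colon WT, against 14.1 and 18.8 CPM in ileum WT, and Rbp2, the retinol binding protein of enterocytes, had 14.9 and 7.04 CPM in colon WT, against 86.6 and 324 CPM in ileum WT, a call lost without either colon library. Members of the Cyp2c, Cyp3a, Ces1 and Hsd3b families have near-identical copies. Reads that fit more than 1 copy are not placed uniquely and were not counted, so values of these genes may be too low. Without colon WT 2 the numbers were 18 and 6.

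Of 35 tested genes of mitochondrial fatty acid and ketone metabolism 7 rose and 4 fell, and without colon WT 1 the numbers were 3 and 3, while without ileum WT 1 they were 5 and 6. Acss2 and Acads, which activate acetate and oxidise short-chain acyl groups, rose by 1.59 ± 0.12 and 1.30 ± 0.17. The enzymes that turn ammonia into citrulline fell, Cps1 with 53.4 and 33.4 CPM in colon WT against 1617 and 3034 CPM in ileum WT (-5.75 ± 0.48), and Otc with 33.5 and 23.3 CPM against 180 and 209 CPM (-2.78 ± 0.19). Hadh, an enzyme of fatty acid oxidation, was not called (0.06 ± 0.12).

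Paneth cell genes had the lowest median of the 25 lists, with 23 of 32 tested genes lower in colon, none higher and a median of -7.99. Lyz1, the Paneth cell lysozyme, had 21.3 and 5.97 CPM in colon WT, against 7132 and 6429 CPM in ileum WT (-8.97 ± 0.73, edgeR adjusted p = 0.000637). Mmp7, the protease that activates defensins in the mouse, had 5.83 and 3.12 CPM in colon WT, against 442 and 1202 CPM in ileum WT, and Itln1, an intelectin that binds bacterial sugars, had 16.8 and 34.8 CPM in colon WT, against 2197 and 11980 CPM in ileum WT. The alpha-defensins together took 0.00235 and 0.000193% of counts in colon WT, against 0.577 and 2.28% in ileum WT. Single alpha-defensins are near-identical copies, so their values are uncertain. Defa24 had 12.1 and 0.535 CPM in colon WT, against 2238 and 13600 CPM in ileum WT, and Defa3 had no count in colon WT and 7.81 and 66.4 CPM in ileum WT, a call lost without either colon library. Wnt3, a ligand that Paneth cells give to stem cells, had no count in colon WT and 12.9 and 19.7 CPM in ileum WT, at least 109-fold lower in colon (adjusted p = 0.00098, edgeR). Paralogous pentraxins parted. Mptx2, known from Paneth cells, had 3.59 and 0.802 CPM in colon WT, against 1099 and 3858 CPM in ileum WT, whereas Mptx1 had 802 and 2237 CPM in colon WT, against 11.6 and 140 CPM in ileum WT, without passing the test (4.32 ± 1.21, edgeR adjusted p = 0.0572). Without colon WT 1 or without colon WT 2 the list had 14 genes called lower, with medians of -7.97 and -7.79.

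Most goblet cell genes were not called, as was true of all genes tested, of which 19.9% were called. Of 25 goblet genes tested, 4 rose and 1 fell, with a median of 0.45. The number that rose was 2 without colon WT 1, 1 without colon WT 2 and 8 without ileum WT 2. Muc2, the gel-forming mucin, had 740 and 2044 CPM in colon WT, against 362 and 700 CPM in ileum WT (1.39 ± 0.72, not called), and Clca1, a mucus-processing protease, had 3410 and 12251 CPM in colon WT, against 3188 and 9892 CPM in ileum WT. In both tissues library 2 was the higher one for these genes, so the groups overlapped for Clca1. The called rises were Best2, Klk1, Bcas1 and Galnt12, and Klk1, a kallikrein, had 369 and 603 CPM in colon WT, against 58.5 and 166 CPM in ileum WT (2.12 ± 0.56), a call lost without colon WT 1, colon WT 2 or ileum WT 1. Galnt12 was lost without colon WT 2, and Bcas1 without either colon library or ileum WT 2. The fall was Itln1, given above. Of genes of deep crypt secretory cells, the colonic neighbours of stem cells, 2 of 15 rose and 2 fell. Sval1 had 227 and 193 CPM in colon WT, against 4.29 and 2.8 CPM in ileum WT (5.87 ± 0.32), and Egfr rose by 0.66 ± 0.16, a call lost without colon WT 2 or ileum WT 2. The falls were Mmp7 and Defa37, an alpha-defensin that stood in that list under an older symbol. Reg4, the marker of these cells, had 660 and 163 CPM in colon WT, against 22.7 and 2683 CPM in ileum WT. The summed tuft cell genes, given above, were likewise higher in ileum WT 2, and their part in this result was not tested.

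Enteroendocrine genes as a list were called about as often as all genes tested, of which 10.2% rose and 9.71% fell. Their general markers had close levels, none called, while some hormone genes were called. Chga had 38.6 and 41.0 CPM in colon WT and 39.5 and 40.2 CPM in ileum WT, and Chgb had 75.4 and 88.4 CPM in colon WT and 79.7 and 82.0 CPM in ileum WT. Gcg, which encodes GLP-1, was as close, with 62.3 and 53.6 CPM in colon WT and 58.7 and 55.1 CPM in ileum WT (0.03 ± 0.14). Of 32 tested genes 3 rose and 4 fell, and without colon WT 2 the numbers were 2 and 2. Insl5, the insulin-like peptide of the distal gut whose promoter is shown above, had 34.5 and 34.8 CPM in colon WT, against 0.0976 and 0 CPM in ileum WT. That is 699 counts against 1, a ratio of 678 with a 95% counting interval of 121 to 26800. Pyy, a satiety peptide, had 49.2 and 40.7 CPM in colon WT, against 20.1 and 11 CPM in ileum WT (1.53 ± 0.26), and Olfr78, a receptor for short-chain fatty acids, had 4.04 and 4.46 CPM in colon WT, against 0 and 0.323 CPM in ileum WT. The 4 genes that fell were Gip, Nts, Cck and Ghrl. Gip, an incretin, had 0.112 and 0 CPM in colon WT, against 4.88 and 6.45 CPM in ileum WT (-6.50 ± 0.77). Nts, neurotensin, had 12.2 and 4.01 CPM in colon WT, against 41.0 and 26.7 CPM in ileum WT (-2.08 ± 0.49), a call lost without ileum WT 1. Cck (-2.33 ± 0.41) and Ghrl (-3.47 ± 0.53) lost their calls without colon WT 2, as did Olfr78.

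Tuft cells, which sense parasites and luminal metabolites, had 1 of 20 tested genes called, Spib, which was lower in colon and which lymphoid cells also express, a call lost without either colon library or ileum WT 2. Dclk1 had 8.52 and 19.3 CPM in colon WT, against 5.86 and 109 CPM in ileum WT, and Trpm5 had 7.63 and 16.6 CPM in colon WT, against 7.91 and 93.7 CPM in ileum WT. Ileum WT 2 alone was high. Without ileum WT 1, where 25 tuft genes were tested, the median was -2.75. Without ileum WT 2, where 20 were tested, it was 0.44.

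Stem cell and Wnt target genes were lower in colon for 12 of 34 tested genes and higher for 2, with a median of -0.36. Olfm4, a marker of small intestinal stem cells, had 4.6 and 1.07 CPM in colon WT, against 1453 and 1626 CPM in ileum WT (-9.13 ± 0.97, edgeR adjusted p = 0.00223). Lgr5, the R-spondin receptor that marks stem cells in both tissues, had 14.5 and 9.89 CPM in colon WT, against 52.4 and 40.1 CPM in ileum WT (-1.93 ± 0.24), and Smoc2 had 48.6 and 52.6 CPM in colon WT, against 124 and 127 CPM in ileum WT. Axin2, a feedback target of Wnt signalling, fell by 1.35 ± 0.22, while Ascl2 (-0.64 ± 0.32), Ephb2 and Rnf43 were not called. The rises were Prom1, lost without colon WT 1, colon WT 2 or ileum WT 2, and Efnb2, lost when any of the 4 was left out. Proliferation genes moved 1 way by small steps, with 26 of 34 tested genes lower in colon, none higher and a median of -0.68. Top2a, a topoisomerase of dividing cells, had 212 and 222 CPM in colon WT, against 466 and 468 CPM in ileum WT (-1.11 ± 0.11), and Mki67 had 276 and 293 CPM in colon WT, against 434 and 453 CPM in ileum WT (-0.64 ± 0.10), a call lost without colon WT 1. For 33 of the 34 both colon libraries were below both ileum libraries. The number called was 17 without colon WT 1 and 20 without colon WT 2, and the number of stem and Wnt genes called lower was 6 without colon WT 1 and 9 without colon WT 2.

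Genes that build and decorate mucins and the glycocalyx were higher in colon for 19 of 42 tested and lower for 5, with a median of 0.84. Muc1, a membrane mucin, had 42.3 and 33.2 CPM in colon WT, against 0.39 and 0 CPM in ileum WT (7.45 ± 0.55, edgeR adjusted p = 0.000296). The fucosyltransferase genes Fut9, with 20.7 and 32.5 CPM in colon WT against 0.293 and 0 CPM in ileum WT, Fut2, with 405 and 428 CPM in colon WT against 76.7 and 114 CPM in ileum WT, and Fut4 (1.28 ± 0.18) all rose. B3gnt7, which extends mucin chains, had 689 and 666 CPM in colon WT, against 120 and 57.9 CPM in ileum WT. B3galt5 had 1036 and 1233 CPM in colon WT, against 95.8 and 15.9 CPM in ileum WT, and its call was lost when any 1 of the 4 WT libraries was left out. Sialyltransferases parted, as St6gal1 rose by 3.29 ± 0.49 and St3gal4, with 242 and 329 CPM in colon WT against 1344 and 1372 CPM in ileum WT, fell by 2.25 ± 0.19. Outside the list, Abo, the blood group transferase, had 8.19 and 12 CPM in colon WT and no count in ileum WT (at least 65.8-fold). Without colon WT 2 the list had 11 genes called higher. Of 21 tested junction genes 2 rose and 4 fell, against 1 and 1 without colon WT 2 and 5 and 3 without ileum WT 1. Cldn8, a claudin that seals against sodium backflow, had 69.4 and 55.9 CPM in colon WT, against 1.95 and 0.968 CPM in ileum WT (5.39 ± 0.27). Cldn15, a sodium-permeable claudin, had 200 and 239 CPM in colon WT, against 434 and 572 CPM in ileum WT (-1.20 ± 0.16).

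Host defence genes had members high in each region. Of 46 tested, 11 rose and 5 fell, with a median of 0.25. The genes that rose included Tlr4, the lipopolysaccharide receptor, with 33.4 and 48.9 CPM in colon WT against 6.05 and 6.99 CPM in ileum WT, and its partner Cd14, with 85.8 and 78.5 CPM in colon WT against 18.5 and 9.79 CPM in ileum WT. Lypd8, a surface protein that keeps flagellated bacteria off the colon epithelium, had 8579 and 5943 CPM in colon WT, against 2697 and 1225 CPM in ileum WT (1.89 ± 0.46), and lost its call without colon WT 1, colon WT 2 or ileum WT 2. Lpo, lactoperoxidase, is not in that list and had 45.2 and 90.9 CPM in colon WT, against 0 and 0.108 CPM in ileum WT. Reg3g, a lectin that kills Gram-positive bacteria, had 1096 and 660 CPM in colon WT, against 13597 and 5010 CPM in ileum WT (-3.40 ± 0.68), a call lost without colon WT 1, colon WT 2 or ileum WT 1. The hydrogen peroxide system of Duox2 (-1.56 ± 0.31) and Duoxa2 (-2.26 ± 0.43) was lower in colon, and both calls were lost without either colon library. Without a WT library the number called higher ranged from 4 (without colon WT 1) to 21 (without ileum WT 1), and the number called lower from 1 (without colon WT 2) to 10 (without ileum WT 2). Ccl25, the chemokine that draws lymphocytes to the small intestine, had 3.03 and 2.76 CPM in colon WT, against 245 and 211 CPM in ileum WT (-6.30 ± 0.15, edgeR adjusted p = 4.31e-06), 1 of 3 of the 21 tested chemokines and recruitment genes that fell. The median of these 21, -0.11 with all libraries, became 0.62 without ileum WT 1 and -0.24 without ileum WT 2, where the number tested also changed.

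Of 51 tested interferon and antigen presentation genes, 9 rose and none fell, with a median of 0.61. The called ones are interferon-induced antiviral genes, such as Oas2, with 21.6 and 25.3 CPM in colon WT against 2.34 and 4.52 CPM in ileum WT, Isg15 (2.15 ± 0.23) and Oasl2 (1.79 ± 0.13). Genes of antigen presentation were not called, among them Cd74, with 1946 and 1622 CPM in colon WT against 2192 and 654 CPM in ileum WT. Within ileum WT these genes were lower in library 2, as were the lymphocyte markers, whose part in this result was not tested. Without ileum WT 1 the number called higher was 37 and the median 1.44, and without ileum WT 2 it was 12 with 3 lower and a median of 0.17.

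Markers of other cell types moved with single libraries rather than with the tissue. None of 28 tested lymphocyte markers was called, and their median of -0.54 became 1.69 without ileum WT 1 and -1.47 when ileum WT 2 was dropped. Of 8 defining lymphocyte markers none was without a count, and they summed to 231 and 86.5 CPM in colon WT and to 674 and 39.3 CPM in ileum WT. Of 20 tested myeloid markers 1 was called with all libraries, S100a8. It had 1.35 and 1.16 CPM in colon WT and 0.0976 and 0 CPM in ileum WT. That call was lost without either colon library or ileum WT 2. The myeloid median of 0.71 became 2.72 without ileum WT 1 and 0.06 without ileum WT 2, where the number tested also changed. Of 23 markers of stroma, muscle, vessel and nerve 2 were called lower, Prox1 and Ret, which endocrine cells can also express. Prox1 lost its call without either colon library or ileum WT 2, and Ret without colon WT 2. Of these 23, 5 were called higher without ileum WT 1 and 4 lower without ileum WT 2. The 6 defining stroma markers summed to 83.3 and 62.8 CPM in colon WT and to 84.7 and 28.4 CPM in ileum WT. None of 5 tested blood cell genes was called. Of 18 genes of the early stress response to cell isolation, 6 rose in colon and none fell (median 0.71), for instance Fos, with 183 and 142 CPM in colon WT against 71.1 and 62.9 CPM in ileum WT (1.28 ± 0.28), which lost its call when any 1 of the 4 WT libraries was left out. Without colon WT 1 or without colon WT 2, 1 of the 18 was called.

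**Figure D4:**
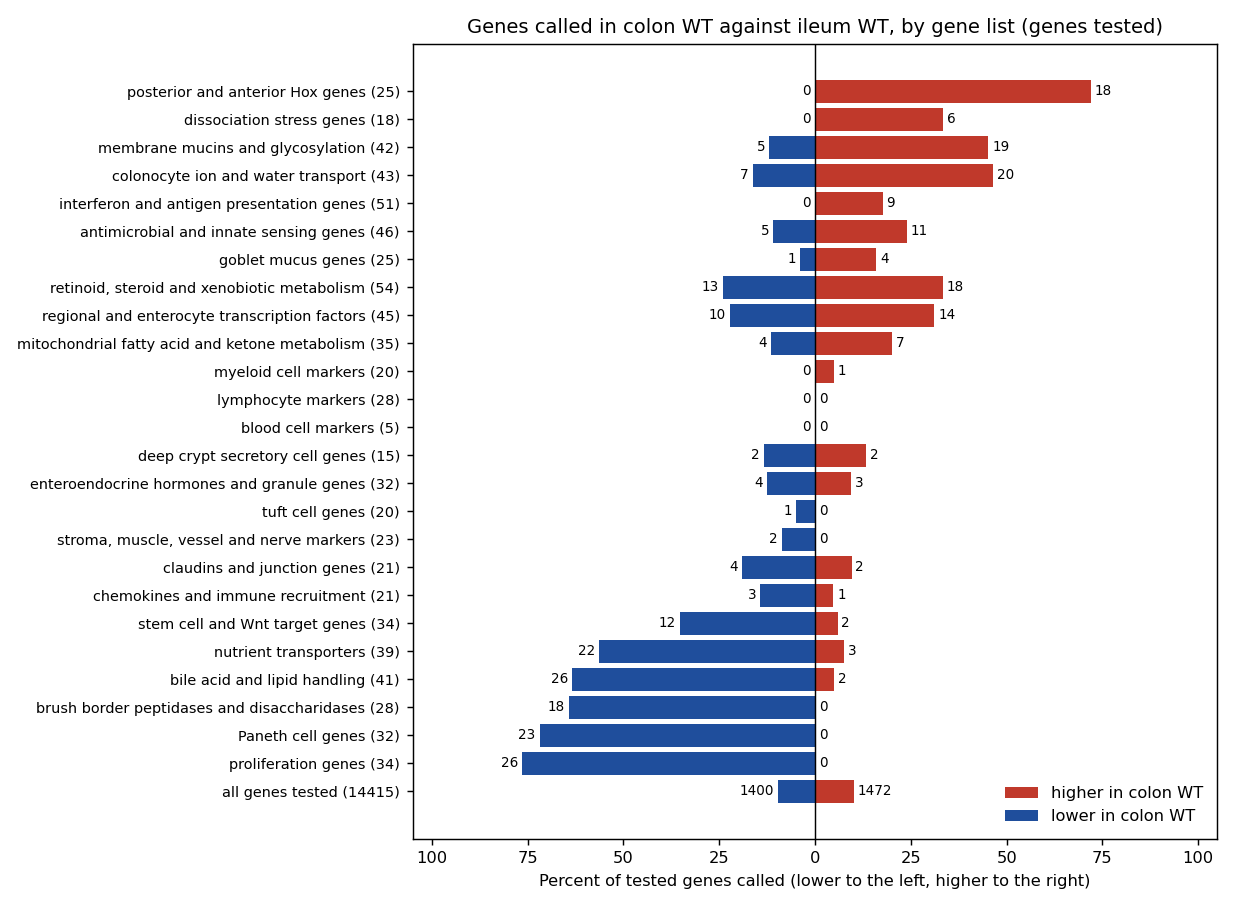
Percent of tested genes of each list that were called higher (right) or lower (left) in colon WT than in ileum WT, with the number called at each bar and the number tested in parentheses. The bottom row holds all 14415 genes, of which 1472 were higher and 1400 lower, and the lists run from Hox genes, 18 of 25 higher, to proliferation genes, 26 of 34 lower.

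The same tissue contrast was taken in KO crypts, in which both Atoh1 alleles are floxed. Its calls came from the same fit of the 8 crypt libraries as the WT calls, with a shared filter, scaling and estimate of spread. The 2 sets of calls are therefore not independent, although they share no sample. Of the 1472 genes that rose in WT, 1255 (85.3%) were also called higher in colon KO than in ileum KO and none lower, where 13.1% of all tested genes were called higher. Of the 1400 that fell in WT, 1177 (84.1%) were also called lower in KO and 2 higher, where 12.6% of all tested genes were called lower. In a test of the difference between the 2 contrasts, 1 of 14415 genes passed (0.00694%), with 563 (3.91%) at an unadjusted p under 0.05 in edgeR. That gene was Anxa13, a membrane-binding annexin of epithelia. It had 15.6 and 21.1 CPM in colon WT and 147 and 145 CPM in ileum WT, and 0.837 and 0.817 CPM in colon KO and 239 and 231 CPM in ileum KO. Its tissue difference was 5.15 ± 0.25 smaller in size in WT than in KO (edgeR adjusted p = 0.00179), a call lost without either colon KO library. Without ileum WT 1 the number that passed was 335, without ileum WT 2 it was 4, and DESeq2 called 52. The KO contrast itself held 3699 calls, and 1603 to 2044 when 1 of its 4 libraries was left out. Anxa13 is in none of the 25 lists, so no list member passed.

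Lists of secretory cells differed in count between WT and KO, without a test of the lists. Goblet genes had 4 of 25 called higher in colon in WT, with a median of 0.45, and 15 of 25 in KO, with a median of 2.66. Enteroendocrine genes had 3 of 32 called higher in WT, with a median of 0.04, and 13 of 32 in KO, with a median of 0.94. Paneth cell genes had 23 of 32 called lower in WT, with a median of -7.99. In KO 15 were called lower and 3 higher, with a median of -5.04. Deep crypt secretory genes had medians of -0.24 in WT and 0.55 in KO, and tuft genes of -2.03 and 1.08. Without ileum WT 2 the WT medians of these last lists were 0.67 and 0.44. Atoh1 had 6.7 and 7.62 CPM in colon KO, against 1.34 and 0.695 CPM in ileum KO, so more of its RNA was left in colon KO, and its part in these counts was not tested.

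Brush border genes called lower in colon were 18 of 28 tested in WT crypts and 14 of 28 in sorted GFP cells, and nutrient transporters 22 of 39 in WT crypts and 11 of 39 in GFP cells. This comparison used a fit of all 14 libraries, on whose scale GFP values are given. WT values stay on the scale of the 8 crypt libraries. The TMM factors of the WT libraries were 0.964 to 1.032 there and 1.248 to 1.346 in the fit of 14. WT values in CPM would therefore be lower on the scale of the GFP values, while ratios of colon over ileum are little affected. The WT libraries are part of that fit, so they also entered the estimate of spread behind the GFP calls. Of genes that rose in WT crypts, 776 (52.7%) were called higher in colon GFP than in ileum GFP cells and 28 lower. Of those that fell, 491 (35.1%) were called lower and 27 higher. Among all 15274 tested genes, 12.6% were called higher and 10.2% lower. The difference between the contrasts passed with a higher log2 ratio of colon over ileum in WT crypts for 136 genes (0.89%). It passed with a lower ratio for 199 (1.3%), and in all for 335 of 15274 genes (2.19%). That number was 149 without colon WT 1, 137 without colon WT 2, 507 without colon GFP 1, 188 without colon GFP 2, 672 without ileum GFP 1, 206 without ileum GFP 2 and 215 without ileum GFP 3. Ileum GFP 1 also stood apart in its reads, of which 52.29% of those placed uniquely lay in no gene, against 24.87 to 31.92% in the other GFP libraries. The log2 ratio of colon over ileum was called lower in WT crypts than in GFP cells for 9 of 28 tested brush border genes. It was also lower for 9 of 39 nutrient transporters and 6 of 41 genes of bile acid and lipid handling. The same held for 8 of 54 genes of retinoid, steroid and xenobiotic metabolism. None of the 26 tested Hox genes passed, and 19 of them were called higher in colon GFP than in ileum GFP cells. A pair of absorptive genes changed direction. Ace, the angiotensin-converting enzyme, had 39.9 and 41.8 CPM in colon WT and 385 and 402 CPM in ileum WT (-3.27 ± 0.10), but 21.6 ± 3.24 CPM in colon GFP and 12.6 ± 4.45 CPM in ileum GFP cells (SD, n = 3 each), a difference between contrasts of -4.04 ± 0.32 (edgeR adjusted p = 2.44e-05). Slc5a1 had 138 ± 2.66 CPM in colon GFP and 51.8 ± 12.9 CPM in ileum GFP cells (SD, n = 3 each), against the fall in WT crypts given above (difference -3.67 ± 0.30, edgeR adjusted p = 2.57e-05). Klf4 was called higher in colon WT crypts and lower in colon GFP cells, with 129 ± 17.3 CPM in colon GFP and 240 ± 78.8 CPM in ileum GFP cells (SD, n = 3 each; difference 2.62 ± 0.34, edgeR adjusted p = 0.00163). Fut2 differed more in GFP cells, with 433 ± 37.5 CPM in colon GFP and 8.86 ± 1.74 CPM in ileum GFP cells (SD, n = 3 each; difference -3.49 ± 0.28, edgeR adjusted p = 2.44e-05). GFP cells differ from crypts in genotype and in sorting as well as in cell type, and these cannot be told apart.

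**Figure D5:**
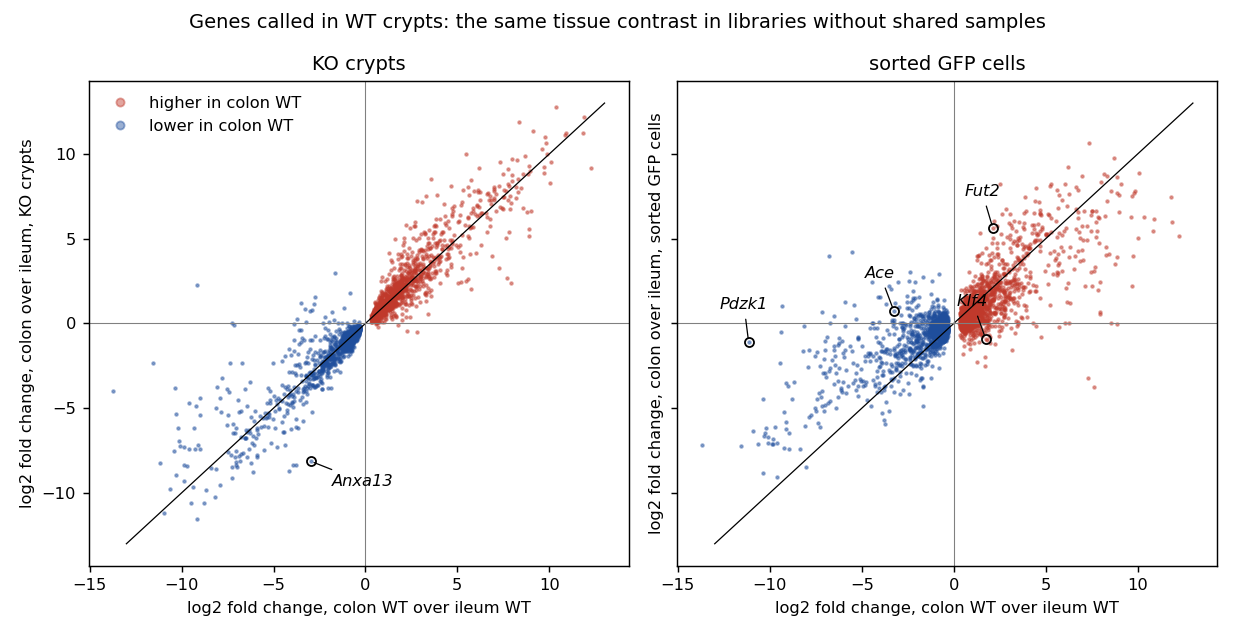
Log2 fold change of colon over ileum in WT crypts (horizontal axis) for the 2872 genes called there, against the same contrast in KO crypts (left) and in sorted GFP cells (right), with 1 point per gene and the line of equality. In KO crypts 1255 of the 1472 genes that rose and 1177 of the 1400 that fell were also called, and in GFP cells 776 and 491.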

How the data were processed

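RNA was extracted with Trizol and an RNeasy kit and sequenced by standard Illumina protocols, per the labels' protocols. The submitters' processing notes name TopHat 1.4.1, HTSeq and the genome build mm9, and the deposited files hold raw counts of uniquely placed reads per Ensembl gene for each of the 14 libraries. The sources used here do not give the HTSeq version, the annotation release or the strand setting. Lines for reads in no gene (9.3 to 13.25% of uniquely placed reads in crypt libraries) were left out of library sizes. Symbols were matched for 31004 of 36536 gene IDs. The reference build is not that of the files, so the only coordinates given are those of RefSeq promoters on GRCm38.p6, each cut to the 250 bases before the start.

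Genes were filtered with filterByExpr and scaled by TMM, and edgeR 4.0.16 in R 4.3.3 fitted 1 quasi-likelihood model with 1 mean per group to the crypt libraries, 8 in all, over 14415 genes, with adjustment over all genes tested. The comparison with GFP cells used all 14 libraries (15274 genes). The 2 contrasts of tissue were compared by an interaction term. The step was tested on simulated data. CPM values are counts over TMM-scaled library size, and per kilobase values divide them by exon length. Fitted fold changes use edgeR's default prior count. Where a group had no count, the fold given is a bound that sets the whole group to a floor of 3 counts, and bounds and 95% intervals cover counting error only.

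The 25 gene lists (884 of 908 entries matched) and all rules were chosen with earlier results of these data known, so list counts are descriptions. Genes were named by a rule: Atoh1, the 12 largest called rises and falls at 10 CPM or more without overlap, per list up to 4 called members per direction and 3 uncalled ones, every tested Hox gene and regional factor, and up to 6 genes per direction for each difference between contrasts. The other genes named, Abcg5, Abcg8, Acads, Ace, Aqp1, Aqp11, Aqp4, Ascl2, Axin2, B3gnt7, Cftr, Chga, Ephb2, Fabp6, Fut2, Fut4, Gucy2c, Hoxc8, Hsd11b2, Isg15, Lgr5, Lypd8, Lyz1, Mki67, Mttp, Oasl2, Rbp2, Reg4, Rnf43, Scnn1a, Scnn1b, Scnn1g, Slc10a2, Slc15a1, Slc26a3, Slc5a1, Slc7a9, Smoc2 and Vil1, were chosen after their values were seen. Alternatives were DESeq2 1.42.0, its size factors, no filter, other library sets, library sizes without genes above 1% of counts, a replicate block and leaving out libraries. A few genes are not reported here.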

Additional observations from a re-analysis of the deposited data

Results flagged for a closer look

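The 13 genes below are those that the naming rule picked because their tissue difference itself differed between settings. Each was called by the interaction term in edgeR's quasi-likelihood test with Benjamini-Hochberg adjustment. Other genes passed against GFP cells as well, among them Ace, Slc5a1, Klf4 and Fut2, given above. As there, WT and GFP values in CPM are on different scales. The values below are the log2 difference of colon over ileum in WT crypts minus that in KO crypts or in sorted GFP cells, with its standard error, and no reason for any of them was tested.

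Against KO crypts, Anxa13 differed by 5.15 ± 0.25 (edgeR adjusted p = 0.00179). It was lower in colon than in ileum in both genotypes, by 2.98 ± 0.14 in WT and by 8.13 ± 0.21 in KO.

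Against GFP cells, 6 genes of absorptive cells or of the cell surface were lower in colon by more in WT crypts. Pdzk1 had no count in colon WT, so its fitted value of -9.81 depends on the prior count and is no measure of size, and it had 0.543 ± 0.36 CPM in colon GFP and 1.26 ± 0.774 CPM in ileum GFP cells. Anpep differed by -6.60 ± 0.83, with 63.7 ± 29.2 CPM in colon GFP and 194 ± 68.5 CPM in ileum GFP cells. Slc6a19 differed by -6.34 ± 0.61, Treh by -6.06 ± 0.71, the amino acid transporter gene Slc7a15 by -6.01 ± 0.96 and Susd2 by -5.75 ± 0.95. Like Pdzk1, each of these 4 averaged under 5 CPM in both GFP groups, so that their difference rests on levels near the floor there.

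The other 6 genes had the higher difference in WT crypts. For Casp14 (5.78 ± 1.10), a caspase of cornifying cells, and B3galt2 (4.0 ± 0.87) colon was higher in both settings and by more in WT. Lyz2 (5.76 ± 1.02), the lysozyme of myeloid cells and a near-identical copy of Lyz1, had 41.7 and 74.9 CPM in colon WT and 37.4 and 10.1 CPM in ileum WT, and 0.6 ± 0.596 CPM in colon GFP and 14.7 ± 7.17 CPM in ileum GFP cells (SD, n = 3 each). Krt20 (3.58 ± 0.70), a keratin of mature surface cells, had 1667 and 958 CPM in colon WT and 1796 and 900 CPM in ileum WT, and 40.7 ± 17.6 CPM in colon GFP and 505 ± 242 CPM in ileum GFP cells (SD, n = 3 each). Mfsd7a (3.98 ± 0.49) and Trim40 (3.58 ± 0.49) likewise were lower in colon than in ileum among GFP cells, with 1.46 ± 0.575 CPM against 15.7 ± 4.75 CPM and 2.35 ± 0.473 CPM against 16.2 ± 4.52 CPM (SD, n = 3 each).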

How the results depend on the processing

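For colon WT against ileum WT, 2872 genes were called, and the number was 1836 in a fit of all 14 libraries, 1213 in a fit of the 4 WT libraries alone and 1289 to 3544 when 1 WT library was left out. DESeq2, its size factors, other library sizes and no filter gave 2681 to 2868 calls, and leaving out both WT 2 libraries 2138. Same-numbered colon and ileum libraries deviated together (r = 0.27 in WT and 0.31 in KO, across 14415 genes), but nothing in the labels says that a number marks a shared animal or day. With the replicate block 3230 genes were called in WT, 4058 in KO and 2 for the difference between the contrasts. For that difference, 52 genes were called by DESeq2, 9 without a filter and 0 to 335 without 1 library. The difference between WT crypts and GFP cells held 840 genes by DESeq2, 1093 without a filter and 137 to 672 without 1 library. The KO contrast held 1603 to 2044 calls without 1 library. The sign of some list medians turned. It turned for deep crypt secretory genes, -0.24 with all libraries, to 0.40 without both WT 2 libraries and to 0.67 without ileum WT 2, for tuft genes to 0.44 without ileum WT 2, and for lymphocyte and stroma markers to 1.69 and 1.51 without ileum WT 1. It also turned for chemokines (-0.11 to 0.62 without ileum WT 1), myeloid markers (0.71 to -0.04 without both WT 2 libraries), and, around medians near 0, for junction genes (0.02, lowest -0.15), enteroendocrine genes (0.04, lowest -0.06) and mitochondrial genes (0.06, lowest -0.02). Leaving out each WT library in turn, medians ran from -0.61 to 0.67 for deep crypt secretory genes, from -2.75 to 0.44 for tuft genes, from -1.47 to 1.69 for lymphocyte markers and from -0.76 to 1.51 for stroma markers. The cause was not tested. No call of the 264 named genes turned its direction under these alternatives, and of their calls 0 (other size factors) to 58 (without colon WT 2) were lost. At these depths the floor of 3 counts lay between 0.276 and 0.339 CPM per WT library, and below it no difference can be seen. With 2 libraries per group, leaving 1 out leaves a lone library that is assumed to vary like the other groups.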

Other observations

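The largest changes also held genes outside the lists. Tgm3, a transglutaminase known from skin and the upper gut, had 566 and 285 CPM in colon WT, against 0.488 and 0.43 CPM in ileum WT (9.81 ± 0.60). Casp14 had 26.2 and 25.5 CPM in colon WT, against 0 and 0.215 CPM in ileum WT. On the other side, Slc7a15 had 0.224 and 0.178 CPM in colon WT, against 35.9 and 19.0 CPM in ileum WT.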
